A study of Mus musculus with 6 samples.

Results

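The transcription factor NRF2 and its repressor KEAP1, 6 enzymes known as NRF2 targets, and both ferritin chains were followed in cultured mouse chondrocytes in which the epidermal growth factor receptor (EGFR) had been stimulated or blocked. The 10 genes (Nfe2l2, Keap1, Hmox1, Nqo1, Gclc, Gclm, Txnrd1, Srxn1, Fth1 and Ftl1) were taken by name from a table of 44788 genes, and all 10 passed the filter on low counts that left 15362 tested genes. The cells were C57BL/6 chondrocytes of the femoral epiphysis, labelled postnatal day 1, grown with 10% serum. Each of the 3 groups had 2 libraries, and every group received 0.1% DMSO. Control cells had the vehicle alone for 48 h, the TGF-alpha group had 10 ng/ml of this EGFR ligand for 48 h, and the third group had 10 µM gefitinib, an inhibitor of the EGFR kinase, for 30 min before and then together with the same TGF-alpha. The series' design text names PBS as the control instead and calls the cells P2 without saying whether a day or a passage is meant. No group with gefitinib alone was analysed here, so an effect of the drug itself and a loss of the ligand's effect cannot be told apart.

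NRF2, the product of Nfe2l2, is a transcription factor that switches on genes against oxidants and reactive chemicals. In resting cells KEAP1 holds it for degradation by the proteasome, so much of its regulation happens on the protein and not on the mRNA. NRF2 binds with small MAF proteins to antioxidant response elements, and ferritin, whose heavy chain (Fth1) oxidises iron and whose light chain (Ftl1) helps to store it, is controlled both through such elements and through translation by iron regulatory proteins.

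Each gene's level is given as CPM, the read count relative to the scaled total of its library, and differences as log2 fold changes with their standard error (SE) and a p-value adjusted over all tested genes. The threshold for calling a gene was an adjusted p of 0.05. Library totals ran from 12317407 to 16096263 counts. Whether the 2 libraries of a group came from different cultures or animals is not stated, and the spread that the p-values measure may therefore be technical. All 10 chondrocyte markers examined were present in every library, with a summed level of 72520 to 77358 CPM in control, 37471 to 38703 with TGF-alpha and 62687 to 65590 with TGF-alpha plus gefitinib. Macrophages are rich in Hmox1 and ferritin. Of 13 macrophage markers in the table, 7 (Ptprc, C1qa, C1qb, C1qc, Tyrobp, Cd163 and Itgam) had 0 counts in all 6 libraries, and the sum of the 13 was 5.78 to 6.56 CPM in control, 13.1 to 16.9 with TGF-alpha and 7.67 to 10.1 with TGF-alpha plus gefitinib, most of the rise being in Cd68 and Cd14. Lyz2, also among the 13, went the other way, from a mean of 2.31 CPM in control to 0.762 with TGF-alpha (edgeR adjusted p = 0.0218). With gefitinib added it was at 2.75 CPM (edgeR adjusted p = 0.00752 against TGF-alpha). Csf1r had 6 and 9 counts in control and 3 and 4 with TGF-alpha. The 8 erythroid markers in the table summed to at most 0.793 CPM. The 7 osteoclast markers summed to 66.3 to 67.2 CPM in control, 64.9 to 72.6 with TGF-alpha and 101 to 103 with gefitinib, most of it Ctsk, while Calcr and Dcstamp were at 0. The part of these marker changes in the results below was not tested. In these bulk samples fewer cells of a type and less RNA per cell cannot be told apart.

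With TGF-alpha, 7 of the 10 genes rose and 1, Hmox1, fell, where 29.9% of all tested genes were called (15.9% higher and 14.0% lower). Nqo1 nearly doubled and Fth1 rose by 77.4%, while Gclm and Txnrd1 were not called. The median log2 fold change of the 10 genes was 0.41, against 0.0039 over all tested genes. The 10 genes and the related lists below were chosen with earlier results of these data known. Their shares and medians beside those of all genes are therefore descriptions. In 8 of the 10 the control and TGF-alpha libraries did not overlap, as in 64.1% of all tested genes. A test against a change of 1.2-fold instead of no change called 5 of the 10, without Keap1, Hmox1 and Srxn1.

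With gefitinib added to TGF-alpha, 6 of the 10 genes were lower than with TGF-alpha alone and 2, Hmox1 and Ftl1, were higher, where 34.0% of all tested genes were called (17.0% higher and 16.9% lower). The median log2 fold change of the 10 was -0.21, against 0.01 over all tested genes. In 9 of the 10 the libraries of both groups did not overlap, as in 65.8% of all tested genes. DESeq2 called 5 of the 10 here, without Keap1, Gclc and Srxn1, and the test against a 1.2-fold change called 3 (Hmox1, Nqo1 and Ftl1). Without the library TGF-alpha 1, edgeR also called 5, again without Keap1, Gclc and Srxn1. This comparison and the previous one share the TGF-alpha libraries.

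Against control, the cells with TGF-alpha plus gefitinib had 3 genes higher, namely Hmox1, Fth1 and Ftl1, and 0 lower by edgeR's test, where 9.52% of all tested genes were called (5.27% higher and 4.26% lower). At an unadjusted p under 0.05, and by DESeq2, 0 of the 10 were lower as well. The median log2 fold change was 0.17 for the 10 genes, against 0.002 over all tested genes, and the libraries did not overlap in 6 of the 10 and in 52.1% of all tested genes. This comparison shares the control libraries with the first and the gefitinib libraries with the second. The background count of 1463 called genes became 666 without Control 1, 649 without Control 2 and 893 without TGF-alpha plus gefitinib 2, while Hmox1, Fth1 and Ftl1 were called in each of these fits.

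**Figure D1:**
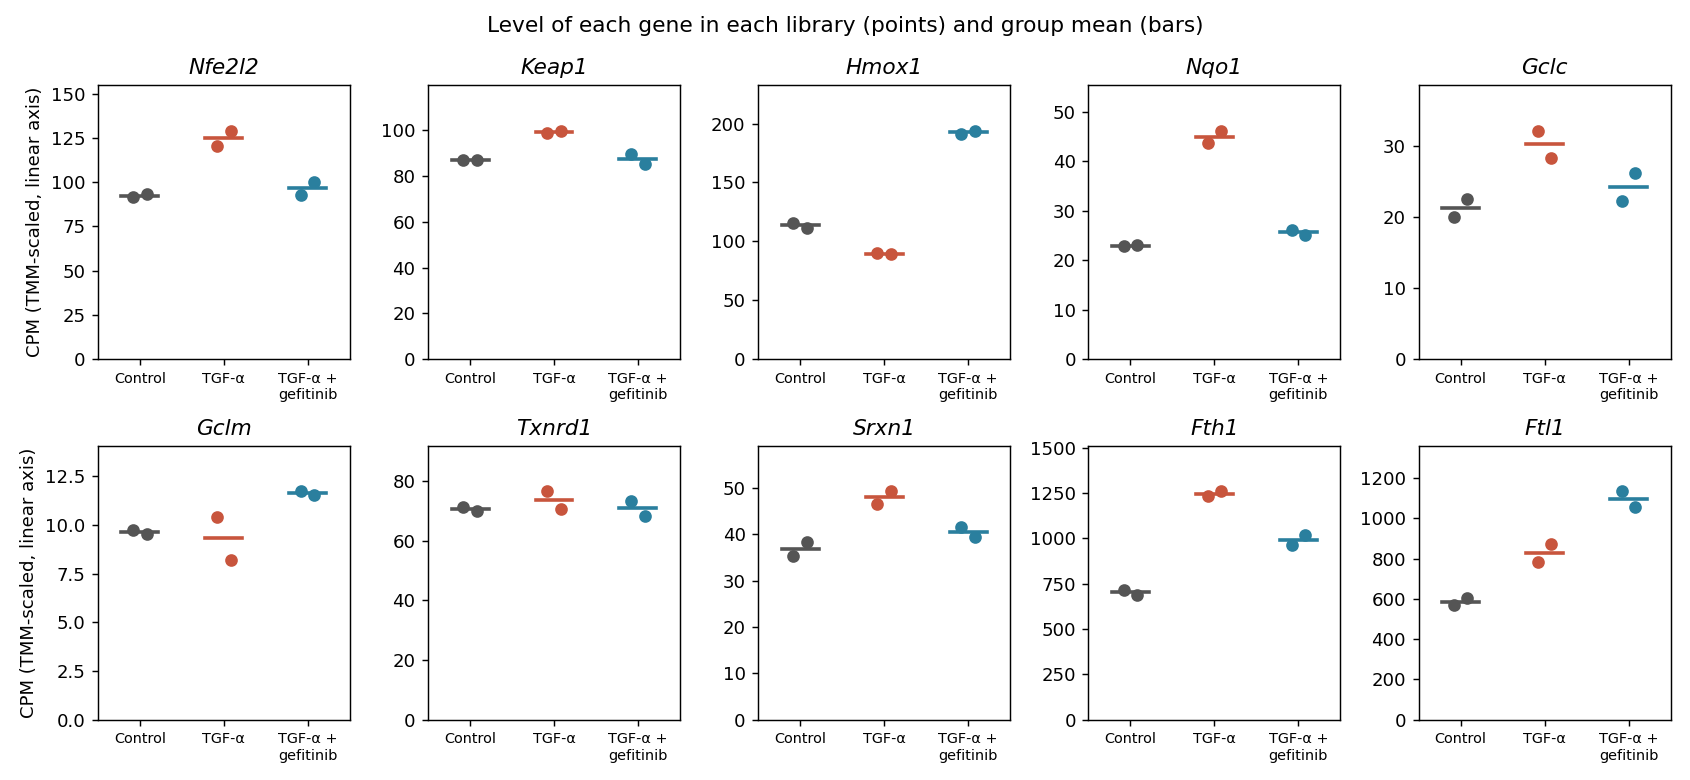
Level of each of the 10 genes in TMM-scaled CPM (vertical axis, linear, from 0) in the 2 libraries of control, TGF-alpha and TGF-alpha plus gefitinib; points are libraries and bars are group means. Hmox1 is lowest with TGF-alpha (89.6 CPM) and highest with gefitinib (193 CPM), Nqo1 is highest with TGF-alpha (45.0 CPM), and Ftl1 rises from control through TGF-alpha to TGF-alpha plus gefitinib.

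**Figure D2:**
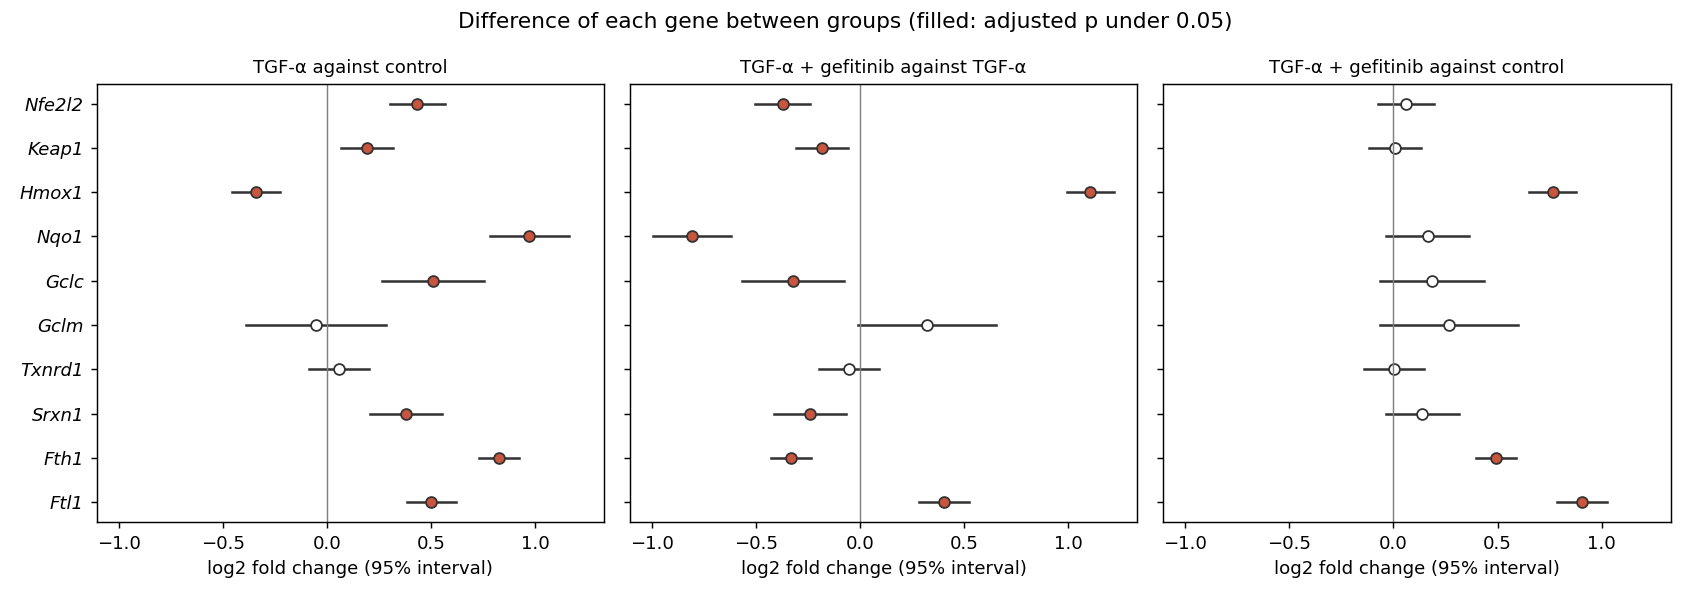
Log2 fold change of each of the 10 genes with its 95% interval (horizontal axis) in the 3 comparisons; filled points had an edgeR adjusted p under 0.05. The right panel shows that the intervals of Hmox1, Fth1 and Ftl1 lie above 0 when TGF-alpha plus gefitinib is set against control, and that those of the other 7 genes include 0.

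Both regulators rose with TGF-alpha and fell when gefitinib was added. Nfe2l2 (ENSMUSG00000015839.6, chromosome 2, 75675513 to 75704641, minus strand, GRCm38) was at 91.8 and 93.1 CPM in the control libraries, 121 and 129 with TGF-alpha, and 92.9 and 100.3 with TGF-alpha plus gefitinib. The TGF-alpha libraries stood above all 4 others, and the control and gefitinib libraries overlapped. It rose by 35.1% with TGF-alpha (log2 0.43 ± 0.06 SE, edgeR adjusted p = 6.91e-05) and fell 1.29-fold with gefitinib added (log2 -0.37 ± 0.06, edgeR adjusted p = 0.000261). Against control the gefitinib group differed by log2 0.06, with a 95% interval of -0.07 to 0.20 (edgeR adjusted p = 0.614).

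Keap1, whose product is the adaptor that presents NRF2 to a CUL3 ubiquitin ligase (ENSMUSG00000003308.15, chromosome 9, 21229730 to 21239361, minus strand), had smaller fold changes. Its level was 86.9 and 87.1 CPM in control, 98.8 and 99.8 with TGF-alpha, and 89.7 and 85.2 with gefitinib. The TGF-alpha pair was the highest, and the gefitinib pair spanned the control pair. The rise was 14.1% (log2 0.19 ± 0.06, edgeR adjusted p = 0.0223) and the change with gefitinib was log2 -0.18 ± 0.06 (edgeR adjusted p = 0.0250). Neither call held under every alternative. The rise had an adjusted p of 0.105 with DESeq2, and in edgeR of 0.106 without Control 1, 0.106 without Control 2, 0.0855 without TGF-alpha 1 and 0.117 without TGF-alpha 2. The fall with gefitinib had an adjusted p of 0.0937 with DESeq2, and in edgeR of 0.0908 without TGF-alpha 1, 0.117 without TGF-alpha 2 and 0.147 without TGF-alpha plus gefitinib 2. An antisense gene, Gm16754, shares 510 exonic bases with Keap1, and whether the counting used strand is not given in the sources used here.

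Nqo1 and Hmox1 are both widely used as readouts of NRF2. Here they moved in opposite directions with TGF-alpha and again when gefitinib was added to it. Against control, both were higher with TGF-alpha plus gefitinib, Nqo1 without being called. Nqo1 encodes a quinone reductase (ENSMUSG00000003849.8, chromosome 8, 107388225 to 107403206, minus strand). It had 22.8 and 23.1 CPM in the control libraries, 43.7 and 46.2 with TGF-alpha, and 26.2 and 25.2 with gefitinib. Both TGF-alpha libraries were far above the other 4. Nqo1 rose 1.96-fold with TGF-alpha (log2 0.97 ± 0.09, edgeR adjusted p = 7.81e-07) and fell 1.75-fold with gefitinib added (log2 -0.81 ± 0.09, edgeR adjusted p = 4.62e-06). The gefitinib libraries remained above both control libraries by log2 0.16 (95% interval -0.03 to 0.36, edgeR adjusted p = 0.312), which did not pass the test.

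Hmox1 encodes haem oxygenase 1, which breaks haem down to iron, carbon monoxide and biliverdin (ENSMUSG00000005413.8, chromosome 8, 75093621 to 75100589, plus strand). Its libraries were at 115 and 112 CPM in control, 90.0 and 89.1 with TGF-alpha, and 191 and 194 with TGF-alpha plus gefitinib. The 3 groups did not overlap, with TGF-alpha lowest and gefitinib highest. Hmox1 fell by 0.34 on the log2 scale with TGF-alpha (SE 0.05, edgeR adjusted p = 0.000214). With gefitinib it was 2.15-fold higher than with TGF-alpha alone (log2 1.11 ± 0.05, edgeR adjusted p = 7.55e-10) and 1.70-fold higher than in control (log2 0.76 ± 0.05, edgeR adjusted p = 5.49e-07). The fall was not called by the test against a 1.2-fold change (adjusted p = 0.140).

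The ratio of Hmox1 to Nqo1 counts within a library, chosen after the values were seen, puts both movements in 1 number. It was 5.07 and 4.84 in control, 2.06 and 1.93 with TGF-alpha, and 7.31 and 7.70 with TGF-alpha plus gefitinib. No 2 groups overlapped in it.

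Of the genes of glutathione synthesis, Gclc rose with TGF-alpha and Gclm was not called. Gclc and Gclm encode the catalytic and the modifier subunit of glutamate-cysteine ligase, the first enzyme of glutathione synthesis. Gclc (ENSMUSG00000032350.9, chromosome 9, 77754535 to 77794485, plus strand) had 19.98 and 22.5 CPM in control, 32.2 and 28.4 with TGF-alpha, and 22.3 and 26.3 with gefitinib. Its TGF-alpha libraries were the highest, and control and gefitinib libraries overlapped. It rose by 42.1% with TGF-alpha (log2 0.51 ± 0.11, edgeR adjusted p = 0.00341), a call that missed the threshold without TGF-alpha 1 (adjusted p = 0.0519). The change with gefitinib was log2 -0.32 ± 0.11 (edgeR adjusted p = 0.0405). That call was lost with DESeq2 (adjusted p = 0.121), and in edgeR without TGF-alpha 1 (0.272) or without TGF-alpha plus gefitinib 1 (0.245).

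Gclm (ENSMUSG00000028124.15, chromosome 3, 122245557 to 122270732, plus strand) had the lowest counts of the 10 genes, 113 to 171 per library. Its level was 9.76 and 9.55 CPM in control, 10.4 and 8.22 with TGF-alpha, and 11.7 and 11.5 with gefitinib. The TGF-alpha libraries spanned the control pair, and the gefitinib pair lay above all others. It was not called in any of the 3 comparisons. The difference was log2 -0.05 for TGF-alpha against control (95% interval -0.39 to 0.29) and 0.32 for gefitinib against TGF-alpha (-0.01 to 0.65, edgeR adjusted p = 0.131). These Gclm values are uncertain. Gm6061, a transcribed pseudogene on the same strand, shares 244 exonic bases with Gclm and had 715 to 974 counts per library, more than Gclm itself, so that reads of the shared bases could have been counted for either gene. Against control, Gm6061 rose by log2 0.24 with TGF-alpha (edgeR adjusted p = 0.0431) and by 0.29 with TGF-alpha plus gefitinib (0.0437). It was not called between the 2 treated groups (edgeR adjusted p = 0.697). An antisense transcript, Gm17494, shares another 296 bases with Gclm.

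Txnrd1 and Srxn1 serve the thioredoxin system. Txnrd1 encodes thioredoxin reductase 1, which passes electrons from NADPH to thioredoxin, and Srxn1 encodes sulfiredoxin, which repairs overoxidised peroxiredoxins. Txnrd1 (ENSMUSG00000020250.10, chromosome 10, 82833951 to 82897712, plus strand) had 71.5 and 70.1 CPM in the control libraries, 76.6 and 70.6 with TGF-alpha, and 73.5 and 68.3 with gefitinib. The 3 groups overlapped. Its differences were log2 0.06 (95% interval -0.09 to 0.20) for TGF-alpha against control, -0.05 (-0.20 to 0.09) for gefitinib against TGF-alpha and 0.0029 (-0.14 to 0.15) for gefitinib against control. To 2 decimals, all 3 intervals lay within -0.20 and 0.20.

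Srxn1 (ENSMUSG00000032802.8, chromosome 2, 152105516 to 152111376, plus strand) had 35.2 and 38.3 CPM in the control libraries, 46.6 and 49.2 with TGF-alpha, and 41.6 and 39.4 with gefitinib. The 3 groups did not overlap, with gefitinib in between. It rose by 30.2% with TGF-alpha (log2 0.38 ± 0.08, edgeR adjusted p = 0.00229). The change with gefitinib was log2 -0.24 ± 0.08 (edgeR adjusted p = 0.0323), and that call was lost with DESeq2 (adjusted p = 0.125) and in edgeR without TGF-alpha 1 (0.0621), TGF-alpha 2 (0.180) or TGF-alpha plus gefitinib 2 (0.165).

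The sequence before the start sites of 8 of the 10 genes was searched for 2 forms of the antioxidant response element, the DNA sequence through which NRF2 acts. The RefSeq promoter table (GRCm38.p6) had windows for all but Hmox1 and Gclc. The motifs were TGACNNNGC and TGAGTCAGC, on both strands, in the 250 bases before each annotated start. The second form contains TGAGTCA, a site for AP-1 factors, so a match to it is also a match to that site. At least 1 of the forms was found for 4 of the 8 genes (Nfe2l2, Gclm, Txnrd1 and Srxn1) and for 11.8% of all 27025 genes in the table. By window, TGACNNNGC was in 10.2% and TGAGTCAGC in 0.347% of 32851 windows. Srxn1 alone among the 8 held TGAGTCAGC, and the matches of Gclm and Txnrd1 were TGACNNNGC on the opposite strand. The Srxn1 window also held a separate TGAGTCA at -102 to -96. The AP-1 form TGANTCA was in 7.82% of all genes with a window. Nfe2l2 held TGACNNNGC on its own strand, at -240 to -232. All 39 bases of this match and its flanks (75704875 to 75704913) lay in annotated exons, against 0 for the stretches of Srxn1, Gclm and Txnrd1. Exons of all genes on both strands were counted. The stretch lies outside the annotated span of Nfe2l2 (75675513 to 75704641), so these exons belong to another gene, not identified here. Matches did not follow the calls with TGF-alpha: Nfe2l2 and Srxn1 rose, Gclm and Txnrd1 were not called, and Keap1, Nqo1, Fth1 and Ftl1 rose without a match in their windows. The matches of Srxn1, Gclm and Txnrd1 are shown as examples of both forms. Capitals mark the match, and sequences read 5′ to 3′ on the strand of the gene.
Srxn1, chr2:152105459-152105507, plus strand, positions -65 to -17 from the RefSeq start: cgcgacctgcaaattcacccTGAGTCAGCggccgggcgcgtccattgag
Gclm, chr3:122245403-122245451, plus strand, positions -154 to -106: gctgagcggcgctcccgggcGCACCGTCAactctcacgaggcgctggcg
Txnrd1, chr10:82859094-82859142, plus strand, positions -112 to -64 in 1 of its 3 windows: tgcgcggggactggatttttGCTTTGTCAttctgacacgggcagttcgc
A match is a description of these letters, and no match in a window says nothing about sites elsewhere.

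The ferritin genes had the highest levels of the 10, and with gefitinib added Fth1 fell while Ftl1 rose. Fth1 (ENSMUSG00000024661.7, chromosome 19, 9980598 to 9985098, plus strand) had 717 and 690.3 CPM in the control libraries, 1236 and 1260.0 with TGF-alpha, and 963 and 1019 with gefitinib. The groups did not overlap, and gefitinib lay between control and TGF-alpha. Fth1 rose 1.77-fold with TGF-alpha (log2 0.83 ± 0.04, edgeR adjusted p = 2.65e-09) and fell by 0.33 on the log2 scale with gefitinib added (SE 0.04, edgeR adjusted p = 3.43e-05). It was still 1.41-fold above control (log2 0.49 ± 0.04, edgeR adjusted p = 7.20e-06).

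Ftl1 (ENSMUSG00000050708.16, chromosome 7, 45457944 to 45459884, minus strand) had 568 and 603 CPM in the control libraries, 785 and 874 with TGF-alpha, and 1134 and 1057 with TGF-alpha plus gefitinib. These groups did not overlap either, but here gefitinib was the highest. Ftl1 rose 1.42-fold with TGF-alpha (log2 0.50 ± 0.06, edgeR adjusted p = 6.53e-06) and rose again, 1.32-fold, with gefitinib added (log2 0.40 ± 0.06, edgeR adjusted p = 4.88e-05). Against control this came to 1.87-fold (log2 0.90 ± 0.06, edgeR adjusted p = 2.48e-07). Exons of Ftl1 share 355 bases with the antisense gene Gm10252 and 109 with the miRNA gene Gm22133.

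Both ferritin genes together took a larger share of the counts in both treated groups than in control. The share was 0.124% and 0.126% in control, 0.204% and 0.218% with TGF-alpha, and 0.212% and 0.211% with TGF-alpha plus gefitinib. The gefitinib libraries thus lay between the TGF-alpha libraries in this sum, while the split between the chains did not overlap. The ratio of Fth1 to Ftl1 counts, chosen after the values were seen, was 1.26 and 1.14 in control, 1.57 and 1.44 with TGF-alpha, and 0.849 and 0.964 with gefitinib. No 2 groups overlapped in it. An exact two-sided permutation test of 2 against 2 libraries gave p = 0.333 for each pair of groups. This is the smallest p that design allows, and groups without overlap always give it, so the test decides nothing here.

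**Figure D3:**
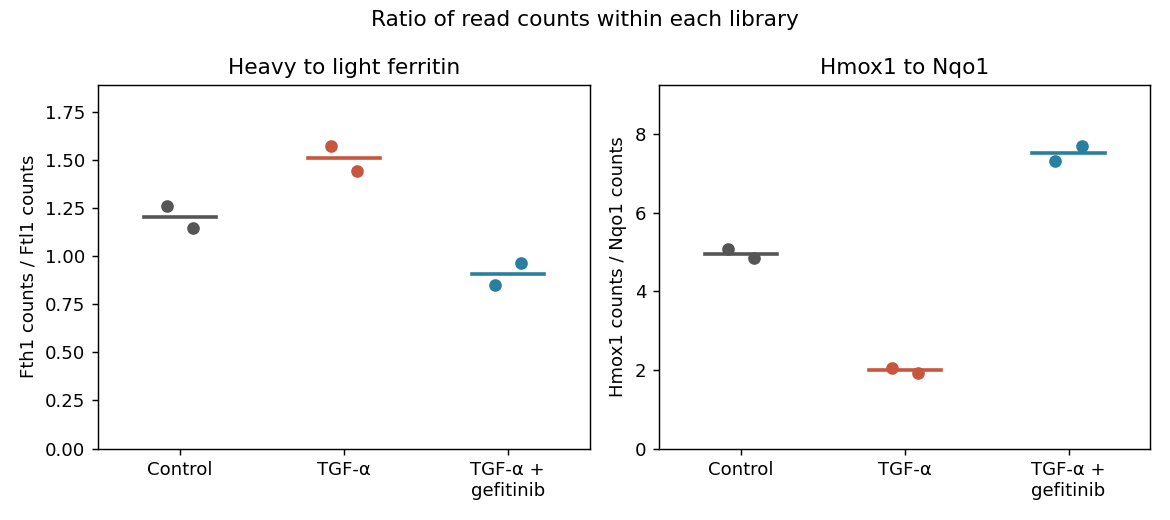
Ratio of read counts within each library (vertical axes, linear, from 0) for Fth1 to Ftl1 (left) and Hmox1 to Nqo1 (right) in the 3 groups; points are libraries and bars are group means. The Fth1 to Ftl1 ratio is highest with TGF-alpha (1.51) and lowest with gefitinib (0.906), and the Hmox1 to Nqo1 ratio runs the other way (1.99 and 7.51).

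The light chain has a copy in the table, Ftl2, which RefSeq lists as the pseudogene Ftl2-ps, and reads could have been divided between them. Ftl2 had 360 and 455 counts in control, 572 and 816 with TGF-alpha, and 611 and 1072 with gefitinib. Its count was 3.69% of the Ftl1 count in TGF-alpha plus gefitinib 1 and 8.11% in TGF-alpha plus gefitinib 2, so the split differed between libraries of 1 group. With Ftl2 added to the light chain, the mean ratio was 1.15 ± 0.0781 in control, 1.42 ± 0.103 with TGF-alpha and 0.855 ± 0.0511 with gefitinib (SD, n = 2), and the groups still did not overlap. Fth-ps2 and Fth-ps3, copies of the heavy chain, had at most 6 and 32 counts.

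Ferritin mRNAs are also known for an iron-responsive element in the leader, the hairpin that iron regulatory proteins bind to hold back translation, which a table of mRNA counts does not measure. The pattern searched, on the transcript's strand, was a C, 5 bases, the loop start CAGTG, 1 base, and 5 bases that pair with the first 5 (G with T allowed), in the annotated leaders of GENCODE M21. It was present in Fth1 and Ftl1, 2 of the 10 genes, and in 31 of 20899 genes (0.148%). The elements are shown because they are the sequence that both ferritin genes have in common and that was not found in the annotated leaders of the other 8. Capitals mark the loop start.
Fth1, chr19:9982733-9982760, GRCm38, plus strand: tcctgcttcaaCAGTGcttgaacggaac
Ftl1, chr7:45459779-45459806, GRCm38, minus strand: tcttgcttcaaCAGTGtttgaacggaac

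Levels of different genes can be compared only per length. In control, CPM per kb of the longest annotated transcript ran in the order Ftl1 (605 ± 25.5, SD, n = 2), Fth1 (341 ± 9.18), Hmox1 (72.3 ± 1.77), Nfe2l2 (37.4 ± 0.375), Keap1 (24.1 ± 0.0325), Txnrd1 (19.5 ± 0.270), Nqo1 (14.8 ± 0.119), Srxn1 (13.1 ± 0.772), Gclc (6.21 ± 0.529) and Gclm (1.73 ± 0.0258). Neighbours in this order did not overlap between the control libraries. With TGF-alpha, Nqo1 (29.0 ± 1.16) stood above Keap1 (27.5 ± 0.202). The order rests on the length taken, also that of Nqo1 and Keap1 with TGF-alpha. Keap1's median transcript has 2824.5 bases against 3614 for its longest, and Nqo1 has 1 transcript. For example, with the median transcript length Fth1 (984 CPM per kb in control) came before Ftl1 (763), and Srxn1 (82.4) before Nfe2l2 (47.1).

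Among the other genes of these pathways, more rose than fell with TGF-alpha in the lists of related enzymes, while haem genes went both ways equally. Of 6 genes of NADPH supply and the pentose phosphate pathway (the NADPH genes), 5 rose and 1, Taldo1, fell. Their median log2 fold change was 0.42, and among all tested genes 15.9% were higher and 14.0% lower. Tkt and Pgd, enzymes of the pentose phosphate pathway, went from 304 ± 18.8 to 407 ± 5.98 CPM and from 103 ± 1.23 to 143 ± 1.73, and Me1, malic enzyme, from 87.6 ± 2.00 to 118 ± 0.631 (SD, n = 2). Of 15 detoxification genes and other NRF2 targets 10 rose and 1 fell (median log2 0.32), among them Ugdh, UDP-glucose dehydrogenase (1.65-fold), and Akr1b8 (2.17-fold) and Ptgr1 (2.20-fold), which encode reductases of reactive carbonyls. Of 20 glutathione and thioredoxin genes 9 rose and 4 fell. The peroxiredoxin gene Prdx1 rose 1.71-fold and the glutaredoxin gene Glrx 2.51-fold, whereas Chac1, a glutathione-degrading enzyme, fell by 1.08 on the log2 scale. Slc7a11, the cystine transporter gene and a known NRF2 target, and Slc3a2 were picked after their values were seen. Both were among the 4 genes of the list that fell. Slc7a11 went from 9.05 to 3.08 CPM (log2 -1.55 ± 0.21, edgeR adjusted p = 4.37e-05). Slc3a2 went from 278 to 185 CPM (log2 -0.59 ± 0.05, edgeR adjusted p = 7.94e-07).

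Partners and control proteins of NRF2 were called in 4 of 14 cases with TGF-alpha, 2 in each direction, a share near the 29.9% of all tested genes. The small MAF gene Maff rose 3.83-fold, from 2.501 ± 0.336 to 9.67 ± 0.312 CPM, and returned to 2.55 ± 0.0166 with gefitinib. The NRF2 relative Nfe2l1 fell by 0.50 on the log2 scale. Among 20 genes of iron uptake, export and sensing 4 rose and 2 fell, again near the share over all genes. Slc25a37, which encodes the mitochondrial iron importer mitoferrin 1, rose 1.59-fold and Steap3, a ferrireductase gene, 1.28-fold, while Cp, the ferroxidase gene ceruloplasmin, fell by 0.67 on the log2 scale. Of 13 tested genes of haem synthesis and handling 4 rose and 4 fell. DESeq2 called 1 haem gene in each direction, 1 NRF2 partner in each direction, and 3 iron genes higher and 1 lower. The medians of these last 3 lists lay between -0.07 and -0.02, and the median of all tested genes was 0.0039.

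With gefitinib added to TGF-alpha, 6 detoxification genes were lower and 4 higher of 15, 4 NADPH genes lower and 2 higher of 6, and 6 glutathione and thioredoxin genes lower and 5 higher of 20. Over all tested genes 34.0% were called, 17.0% higher and 16.9% lower. In the glutathione and thioredoxin list DESeq2 called 6 lower and 2 higher. Ugdh and Abcc1, the latter an exporter of glutathione conjugates, fell by 0.85 and 0.60 on the log2 scale. Among the genes called higher, Chac1 rose 2.71-fold (edgeR adjusted p = 2.79e-09), Slc3a2 1.65-fold (8.28e-08) and Taldo1 1.46-fold (5.82e-06). Each of these had fallen with TGF-alpha. Sqstm1, whose product p62 binds KEAP1 and which sits on 2 of the lists, averaged 316 ± 1.43 CPM in control and 308 ± 3.99 with TGF-alpha, and rose to 443 ± 22.5 with gefitinib (1.44-fold over TGF-alpha, edgeR adjusted p = 8.64e-07). Like those of Hmox1 and Ftl1, its gefitinib libraries were the highest of the 6. Iron genes were higher in 5 and lower in 3 of 20 cases, with Fbxl5, the gene of an iron sensor that targets IRP2 for degradation, falling by 0.79 on the log2 scale and the haemochromatosis gene Hfe rising 1.60-fold. Fbxl5 had risen 1.54-fold with TGF-alpha (edgeR adjusted p = 0.000167). Its level with gefitinib was not called against control (edgeR adjusted p = 0.328). Partners of NRF2 were higher in 3 and lower in 1 of 14 cases, and haem genes higher in 2 and lower in 3 of 13, so that the share called in these last 3 lists was near that over all genes. DESeq2 called 2 haem genes higher and 1 lower.

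For TGF-alpha plus gefitinib against control, where 9.52% of all tested genes were called (5.27% higher and 4.26% lower), the lists also held fewer called genes. Detoxification genes were higher in 4 and lower in 1 of 15 cases, glutathione and thioredoxin genes higher in 4 and lower in 2 of 20, NADPH genes higher in 2 of 6, iron genes higher in 4 of 20 and NRF2 partners higher in 2 of 14. DESeq2 called 2 iron genes and 1 partner, all higher. Gpx4, the peroxidase of membrane lipid peroxides, rose 1.49-fold over control (edgeR adjusted p = 0.00193), the NADP-dependent dehydrogenase gene Idh1 1.48-fold (4.37e-05), and the epoxide hydrolase gene Ephx1 1.32-fold (0.000159). Of the iron genes, Steap3 rose 1.44-fold (edgeR adjusted p = 2.98e-05), Hfe 1.42-fold (0.00208) and Slc11a2, the iron importer DMT1, 1.24-fold (0.0232). With gefitinib added to TGF-alpha, Slc7a11 rose from 3.08 to 5.24 CPM (log2 0.77 ± 0.22, edgeR adjusted p = 0.0144). It was still below control (log2 -0.78 ± 0.20, edgeR adjusted p = 0.0205). Slc3a2, at 305 CPM with gefitinib, was not called against control (edgeR adjusted p = 0.138). Of the haem genes 0 of 13 were called by edgeR and 0 by DESeq2 (which gave 1 of them no adjusted p), and at an unadjusted p under 0.05 there were 2 higher and 2 lower.

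**Figure D4:**
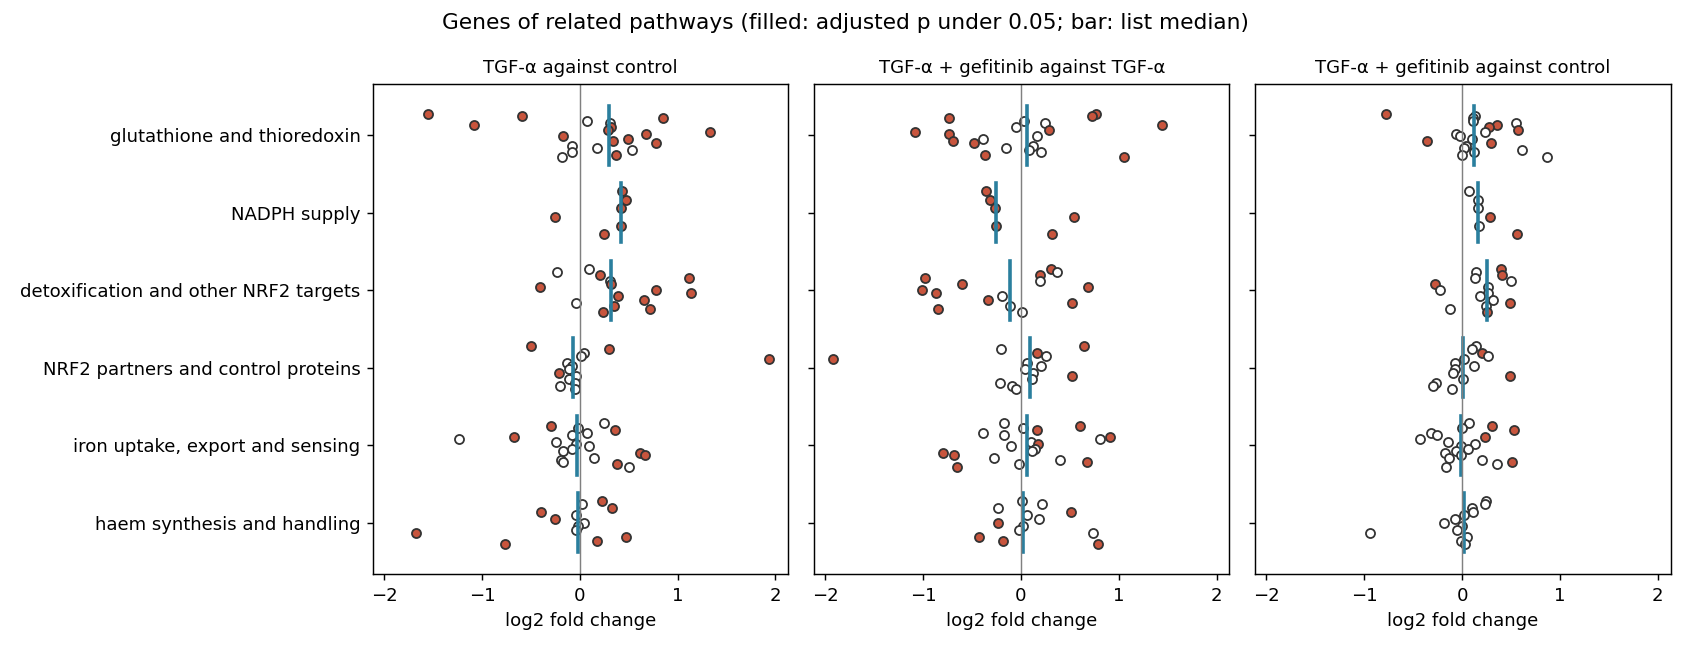
Log2 fold change (horizontal axis) of each tested gene of 6 lists related to NRF2, iron and haem in the 3 comparisons; filled points had an edgeR adjusted p under 0.05 and bars are list medians. With TGF-alpha the medians of the glutathione, NADPH and detoxification lists lie at 0.30, 0.42 and 0.32, and those of the other 3 lists near 0.

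Finally, the genes whose levels over the 6 libraries ran most like those of 4 of the members were sought among the 11266 whose mean reached 5 CPM, by Pearson's r of log2 CPM. The 6 points are 3 groups of 2 libraries, so r is a description. Nfe2l2 was most like Prps2 (0.997), Rpa1 (0.996) and the EGFR ligand gene Hbegf (0.996). Hmox1 was most like Sema3b (0.998), S100b (0.997) and Gdf11 (0.996). Sema3b, a semaphorin gene, averaged 34.9 CPM in control, 28.8 with TGF-alpha and 60.4 with gefitinib, the same order of groups as Hmox1. Nqo1 was most like the syndecan gene Sdc4, Pcgf5 and Rab13 (r of 0.999 or more in each), and Sdc4 went from 363 to 653 and back to 395 CPM. Fth1 was most like Stom (0.997), the sterol synthesis gene Lss (0.995) and Acox2 (0.995).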

How the data were processed

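The values used are the gene-level read counts that the authors deposited as a single table, in whole numbers and without normalization. The submitters' processing notes name the build GRCm38, and the labels' protocols name Ion Proton libraries. The sources used here do not give the aligner, counter, annotation, strand setting or filters.

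R 4.3.3 and edgeR 4.0.16 were used: filterByExpr (minimum count 10), TMM scaling, and a quasi-likelihood fit (glmQLFit, glmQLFTest) to the 6 libraries by group, with 3 residual and 11.2 prior degrees of freedom. Benjamini-Hochberg adjustment ran over all 15362 tested genes, and tests were two-sided. The SE is the log2 fold change divided by the square root of F, and 95% intervals use the fit's total degrees of freedom. Alternatives were DESeq2 1.42.0, RLE scaling, no filter, a replicate block, a test against a 1.2-fold change, fits of 4 libraries, ferritin copies added, and leaving out each library. Simulated data, drawn with the spread that the fit itself estimated, were also run through the fit, and their outcome is not reported here. The 10 genes, the 6 related lists and the markers were chosen with earlier results of these data known. From each list, the up to 3 called genes with the smallest p per comparison could be named (the 1 with the highest mean where none was called), and some of these are printed. Genes were matched by symbol to GENCODE M21 for positions, lengths and overlaps (10 of 10) and to RefSeq (GRCm38.p6) for promoters (8 of 10), and Ftl2 was matched to Ftl2-ps through RefSeq's gene synonyms.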

Additional observations from a re-analysis of the deposited data

How the results depend on the processing

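The 3 calls of TGF-alpha plus gefitinib against control (Hmox1, Fth1, Ftl1) numbered 3 in every alternative run, with a range of 3 to 3 when each library was left out. For TGF-alpha against control 8 genes of the 10 were called, 6 to 8 without 1 library and 5 in the test against a 1.2-fold change. For gefitinib added to TGF-alpha 8 were called, 5 to 8 without 1 library, 5 with DESeq2 and 3 against a 1.2-fold change. The cause of the lower DESeq2 counts was not tested. Of all genes, 4600, 5217 and 1463 were called in the 3 comparisons. Against a 1.2-fold change there were 2319, 2669 and 277, and without 1 library 3297 to 4767, 3703 to 4950 and 649 to 1291. DESeq2 called 951 in the last comparison. RLE scaling, the absence of a filter and the fits of 4 libraries changed no call of the 10 genes, and ferritin with its copies added changed none either. No log2 fold change past the threshold changed sign in any alternative run. Depth limits Gclm, with 113 to 171 counts.

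Over all tested genes, the differences between replicates 1 and 2 correlated at 0.0034, 0.0108 and -0.0228 between groups. The replicate numbers of the labels thus showed no general pairing of the libraries. A pairing limited to some genes was not tested. With the replicate number as a block, 4450, 5042 and 1335 genes were called, and 8, 7 and 3 of the 10 (Gclc with gefitinib added had an edgeR adjusted p of 0.0525). The block changed no other call of the 10.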
